A study of Mus musculus with 3 samples.

Results

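The genes described here handle uridine, the other pyrimidines and galactose in the liver: Upp1, Upp2 and Dpyd of pyrimidine breakdown, Cad, Dhodh and Umps of pyrimidine synthesis, Uck2 of uridine salvage, and Galk1, Galt and Ugp2 of galactose and UDP-glucose metabolism. They were chosen by name, with earlier results of these data known, so their counts beside those of all genes are descriptions and not tests. A table row was taken when its platform symbol, the current name of that symbol or a synonym matched, which gave 11 rows for all 10 genes, with 2 rows for Uck2 and 1 for each of the others. All 10 had a value on all 3 arrays, and they were read against 10179 named genes that also did.

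The study set the livers of female C57BL/6 mice side by side on 3 arrays with 2 colours. Every array carried RNA of untreated wild-type liver in Cy5. In Cy3 it carried RNA of LPS/GalN-treated wild-type, untreated TMX-/- or LPS/GalN-treated TMX-/- liver, with 1 array for each. LPS/GalN stands for 3 ng lipopolysaccharide (LPS, from the outer membrane of bacteria) and 10 mg D-galactosamine (GalN) given intraperitoneally, with the liver taken 24 h later, as the labels' protocols state. TMX is a membrane-bound member of the thioredoxin family in the endoplasmic reticulum. The age of the mice, the deleted part of the gene, vehicle injection of the untreated mice and the number of mice behind each channel are not stated in the sources used here.

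D-galactosamine is taken up by hepatocytes and enters the galactose pathway, where galactokinase (Galk1) phosphorylates it and galactose-1-phosphate uridylyltransferase (Galt) joins it to UDP. The UDP-amino sugars that form hold uridine that the cell would use for RNA, glycogen and glucuronides, and hepatocytes short of UTP become sensitive to LPS and tumour necrosis factor. Uridine is regained by de novo synthesis, which starts with Cad, or by phosphorylation of free uridine by uridine-cytidine kinases, and it is lost when uridine phosphorylases open the path to breakdown.

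All values are log2 ratios of the Cy3 sample to untreated wild-type liver, each array centred on its median over the 10179 genes, or differences between such ratios. A gene counts as different at 2-fold, a log2 value of 1 either way. With 1 array for each group there is no test and no p-value. The error quoted is the SD of a single probe, taken from 81 genes with 2 probes: 0.42 for treated wild-type, 0.42 for untreated TMX-/- and 0.76 for treated TMX-/- liver, 0.67 for the difference between the TMX-/- arrays and 0.59 for that between the treated livers. It measures how far probes of a gene disagree on the same arrays. Differences between mice, labellings and hybridisations are left out, and so are effects of the dyes and of the shared reference. The reference was in Cy5 on every array, so no array had the dyes exchanged. Tmx1, the targeted gene, stood at -2.96 in untreated and -3.88 in treated TMX-/- liver, and at 0.59 in treated wild-type liver. The deposited table does not say which channel is the numerator. Sample over reference is taken as likely from Tmx1 alone, and if the ratio ran the other way, high and low would change places throughout.

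Treated TMX-/- liver held the large ratios of these genes. There 2 of the 10 were at least 2-fold higher than in untreated wild-type liver (Upp1 and Cad) and 2 were lower (Upp2 and Dpyd), where 13.6% of the 10179 genes were higher and 13.2% lower. None of the 10 reached 2-fold in treated wild-type liver, where 4.55% of all genes did, or in untreated TMX-/- liver, where 2.61% did. The count in treated wild-type liver depended on the setting: 1 gene (Dpyd) was 2-fold lower with the values as deposited or centred over all named genes, and 2 (Dpyd and Upp2) with equal spread or a natural logarithm. The median of the 10 genes was -0.05, -0.07 and 0.06 in treated wild-type, untreated TMX-/- and treated TMX-/- liver, against 0 for all genes on each array by the centring. In either direction, 4 of the 10 genes stood beside 26.8% of all genes in treated TMX-/- liver. The shares of 13.6% higher and 13.2% lower are also the background for the list counts on that array below.

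**Figure D1:**
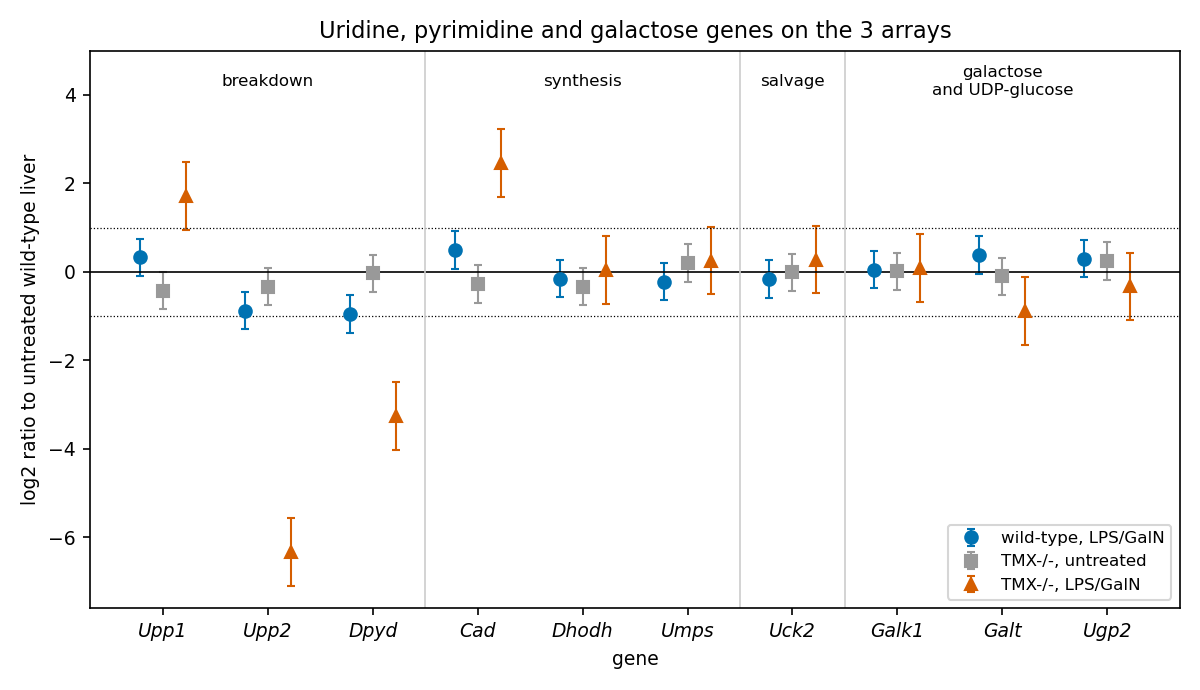
Log2 ratio to untreated wild-type liver (vertical axis) of the 10 genes (horizontal axis, grouped by role) on the 3 arrays; points are single arrays, bars are plus and minus the SD of a single probe on that array, and dotted lines mark 2-fold. The treated TMX-/- points of Upp2 (-6.33) and Dpyd (-3.26) lie far below the others, those of Cad (2.46) and Upp1 (1.72) above 2-fold, and the points of Galk1 stay between 0.01 and 0.08.

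Upp2, the uridine phosphorylase of the liver, cleaves uridine into uracil and ribose 1-phosphate. Its log2 ratio was -0.88 in treated wild-type liver, -0.34 in untreated TMX-/- liver and -6.33 in treated TMX-/- liver. The last value, 80.6-fold below untreated wild-type liver, was the lowest of the 10179 genes, and the deposited value behind it (-6.40) was the lowest of the whole table. Treated TMX-/- liver stood 63.7-fold below untreated TMX-/- liver (-5.99, again the lowest gene) and 43.9-fold below treated wild-type liver (-5.46, the second lowest, rank 2). These differences were 8.95 and 9.24 times the SD of a single probe. Their size depended on the unequal spread of the arrays: scaled to an equal spread, Upp2 stood at -3.91 against untreated wild-type, -3.38 against untreated TMX-/- and -2.75 against treated wild-type liver. All these values come from 1 probe. Its signal and background were not at hand, so whether background limited the folds is unknown. In treated wild-type liver Upp2 was at rank 262 from the lowest, 1.84-fold down and 2.08 times the SD of a single probe from 0. Against the other untreated liver, that of TMX-/- mice, treated wild-type liver was lower by less (-0.54).

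Upp1, the uridine phosphorylase of most other tissues, catalyses the same reaction and went the other way. It stood at 0.33, -0.43 and 1.72 in treated wild-type, untreated TMX-/- and treated TMX-/- liver. The treated TMX-/- value was 3.30-fold above untreated wild-type liver, and the difference was 2.15 (4.43-fold) against untreated TMX-/- liver and 1.39 (2.62-fold) against treated wild-type liver. The wild-type and untreated values lay within about 1 SD of a single probe of 0, at 0.779 and 1.01 times that SD. In treated TMX-/- liver the log2 ratio of Upp1 thus exceeded that of Upp2 by 8.05, compared with 1.20 in treated wild-type liver. These are ratios of each gene to its own reference, so they do not say which of the phosphorylases was the more abundant.

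Dpyd encodes dihydropyrimidine dehydrogenase, which reduces uracil and thymine in the rate-limiting step of pyrimidine breakdown. It stood at -0.96 in treated wild-type liver, -0.04 in untreated TMX-/- liver and -3.26 in treated TMX-/- liver, a 9.55-fold lower level in the last (-2.01 with equal spread on the arrays). Among all genes it had rank 205, 4675 and 53 from the lowest on the 3 arrays. It was low on both treated arrays and near 0 on the untreated array. The treated wild-type value lay just short of 2-fold (past it, at -1.001, with the values as deposited), was 2.27 times the SD of a single probe, and was nearly the same against untreated TMX-/- liver (-0.92). The difference between the treated livers was -2.30 (4.92-fold), with 10.6% of all genes at least 2-fold lower and 9.64% higher in that comparison.

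The genes that act after Dpyd were low too in treated TMX-/- liver. Dpys, dihydropyrimidinase, opens the reduced ring and stood at -0.39, 0.17 and -2.86 in treated wild-type, untreated TMX-/- and treated TMX-/- liver. Upb1, beta-ureidopropionase, makes the end product beta-alanine from uracil and stood at -0.10, -0.25 and -1.86. Upp2, Dpyd, Dpys and Upb1 therefore were each at least 2-fold lower in treated TMX-/- liver, with ratios nearest to 0 at the last step. Cda, cytidine deaminase, which turns cytidine into uridine, stood with Upp1 on the other side at 1.42, and Tymp, thymidine phosphorylase, stood at -0.79. Of the 7 measured genes of pyrimidine breakdown, 4 were 2-fold lower and 2 higher in treated TMX-/- liver, with a median of -1.86. The same counts held against untreated TMX-/- liver, where 12.1% of all genes were lower and 11.4% higher, and against treated wild-type liver. None of the 7 reached 2-fold in treated wild-type or untreated TMX-/- liver.

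The sequences before the start sites of the 4 genes past 2-fold in treated TMX-/- liver are shown because these genes had the large ratios. They are from RefSeq, build GRCm38.p6, 250 bases before an annotated start, 5′ to 3′ on the strand of the gene, which is the plus strand for all 4. Capitals mark any of 6 motifs that were searched on both strands. The Upp2 window is at chr2:58754934-58755183, before the second of its 2 listed starts, the Dpyd window at chr3:118561930-118562179, the Cad window at chr5:31054530-31054779 and the Upp1 window, before the first of its 3 listed starts, at chr11:9117758-9118007.
Upp2: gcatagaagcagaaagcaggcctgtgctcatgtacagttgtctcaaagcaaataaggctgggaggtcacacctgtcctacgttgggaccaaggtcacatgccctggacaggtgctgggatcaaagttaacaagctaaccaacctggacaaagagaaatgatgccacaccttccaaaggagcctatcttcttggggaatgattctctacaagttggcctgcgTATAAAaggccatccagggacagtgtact
Dpyd: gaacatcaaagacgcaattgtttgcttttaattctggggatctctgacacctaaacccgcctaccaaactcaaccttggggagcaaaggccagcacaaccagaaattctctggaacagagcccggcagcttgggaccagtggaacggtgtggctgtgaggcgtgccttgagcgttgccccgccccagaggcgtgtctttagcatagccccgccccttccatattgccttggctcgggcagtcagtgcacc
Cad: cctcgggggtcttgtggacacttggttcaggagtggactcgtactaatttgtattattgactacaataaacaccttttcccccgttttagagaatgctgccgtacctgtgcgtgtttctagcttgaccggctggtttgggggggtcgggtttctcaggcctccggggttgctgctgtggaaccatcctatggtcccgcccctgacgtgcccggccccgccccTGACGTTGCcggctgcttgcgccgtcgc
Upp1: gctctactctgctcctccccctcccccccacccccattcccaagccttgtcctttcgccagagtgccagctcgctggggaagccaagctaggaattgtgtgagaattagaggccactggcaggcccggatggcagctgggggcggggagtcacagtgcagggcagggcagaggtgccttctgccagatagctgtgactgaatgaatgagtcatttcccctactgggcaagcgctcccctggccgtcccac

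The Upp2 window holds TATAAA, the letters of a TATA box, with its first base at -29 from the start, and this window lies inside the gene, which spans chr2:58566317-58795846. The Cad window holds TGACNNNGC, the core letters of an antioxidant response element, and neither the Dpyd nor the Upp1 window holds any of the motifs. The search covered 14 windows of 300 bases (250 before to 50 after a start) for 9 of the 10 genes, and all 32851 windows of the RefSeq table for the background. TATAAA was in 13.6% of all windows and in those of Umps and Upp2, and TGACNNNGC in 12.4% and in those of Cad and Uck2. CACGTG, the E-box, was in 7.15% of all windows and in those of Galk1 and Galt, whose ratios stayed under 2-fold against untreated wild-type liver. TGACGTCA, the cAMP response element, was in 1.79% and in that of Umps. CCAAT was in 37.4% and in windows of Galt, Uck2, Ugp2 and the other Upp2 start, and CAAAGTCCA, an HNF4 motif, was in 0.475% and in none of the 14. TATAAA, TGACNNNGC and the other motifs are letters found in these windows and not sites shown to be bound.

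Cad, the enzyme that carries out the opening 3 reactions of pyrimidine synthesis (carbamoyl phosphate synthetase, aspartate transcarbamylase and dihydroorotase), was the highest of the 10 genes in treated TMX-/- liver. It stood at 0.49 in treated wild-type liver, -0.27 in untreated TMX-/- liver and 2.46 in treated TMX-/- liver, 5.49-fold above untreated wild-type liver. The difference was 2.73 (6.64-fold) against untreated TMX-/- liver, at rank 63 from the highest of all genes, and 1.96 (3.89-fold) against treated wild-type liver. With equal spread the treated TMX-/- value was 1.52. Only the treated TMX-/- array set Cad apart by more than 3 times the SD of a single probe, at 3.21 times, while the treated wild-type value was 1.17 times that SD.

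The later enzymes of the same path did not follow Cad. Dhodh, the mitochondrial dihydroorotate dehydrogenase, stood at -0.16, -0.34 and 0.05 in treated wild-type, untreated TMX-/- and treated TMX-/- liver. Umps, which makes UMP from orotate, stood at -0.22, 0.20 and 0.25. All 6 of these values lay within 1 SD of a single probe of 0, so no difference in Dhodh or Umps was larger than the error between probes. In treated TMX-/- liver Cad exceeded Umps by 2.20 and Dhodh by 2.41 on the log2 ratio scale.

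Ctps, CTP synthase, which makes CTP from UTP, had the highest ratio of the de novo list at 3.38 in treated TMX-/- liver, against 0.21 in treated wild-type and 0.30 in untreated TMX-/- liver. Its relative Ctps2 stood at 0.57 in treated TMX-/- liver. Of the 5 genes of de novo synthesis, all measured, 2 were 2-fold higher in treated TMX-/- liver (Cad and Ctps), beside 13.6% of all genes. Of the 5, 0 were lower, beside 13.2% of all genes, and the median was 0.57. Against treated wild-type liver 2 of the 5 were 2-fold higher, beside 9.64% of all genes, with a median of 0.47.

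Uck2, a uridine-cytidine kinase that phosphorylates uridine to UMP and is the form of growing cells, had 2 probes that did not give the same answer. In treated TMX-/- liver they stood at 1.005 and -0.46, on either side of 0, and their mean was 0.27. The gap of 1.46 was reached or passed by 16 of the 81 genes with 2 probes on that array. In treated wild-type liver the probes stood at -0.12 and -0.21, and in untreated TMX-/- liver at 0.19 and -0.22. No direction can therefore be given for Uck2 in treated TMX-/- liver.

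The other salvage genes and nucleotide kinases were mixed. Cmpk2, a mitochondrial UMP/CMP kinase and a known interferon-induced gene, stood at -0.12, -0.15 and 2.50 in treated wild-type, untreated TMX-/- and treated TMX-/- liver. Dck, deoxycytidine kinase, stood at 0.21, 0.59 and 1.94, and Nme1, a nucleoside diphosphate kinase, at 0.71, 0.12 and 1.002. Tk1, the thymidine kinase of dividing cells, was lower on all 3 arrays, at -0.55, -0.69 and -2.20. Of 11 measured genes in this list, 3 were 2-fold higher and 1 lower in treated TMX-/- liver, with a median of 0.33. Among all genes there, 13.6% were higher and 13.2% lower.

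Galactose enters metabolism through the enzymes on which the toxicity of galactosamine depends. Galk1, galactokinase, stood at 0.05, 0.01 and 0.08 in treated wild-type, untreated TMX-/- and treated TMX-/- liver, the smallest range of the 10 genes. Galt stood at 0.38, -0.10 and -0.89. Its values in treated wild-type and treated TMX-/- liver lay on either side of 0. Each was near the SD of a single probe, at 0.905 and 1.16 times that SD. The difference between the treated livers was -1.27 (2.41-fold lower in TMX-/- liver), 2.15 times the SD of a single probe. That made Galt the 1 gene of the 10 that reached 2-fold between the treated livers without doing so against untreated liver.

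Ugp2, UDP-glucose pyrophosphorylase, makes UDP-glucose from UTP and glucose 1-phosphate. It stood at 0.29, 0.24 and -0.33, with differences of -0.57 against untreated TMX-/- liver and -0.62 against treated wild-type liver, each near the SD of a single probe (0.855 and 1.05 times). Galm, the mutarotase that readies galactose for Galk1, was the lowest of the galactose list at -2.09 in treated TMX-/- liver, and at -0.33 and -0.29 in treated wild-type and untreated TMX-/- liver. The phosphoglucomutase gene Pgm2 stood at -0.34 in treated TMX-/- liver. Of 6 measured genes of the galactose pathway, 1 (Galm) was 2-fold lower there, 0 were higher, and the median was -0.34. Among all genes, 13.2% were lower and 13.6% higher in treated TMX-/- liver.

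Treated TMX-/- liver compared with untreated TMX-/- liver leaves out the wild-type reference, provided each array carried the same reference RNA. In that comparison Upp1 (2.15) and Cad (2.73) were at least 2-fold higher and Upp2 (-5.99) and Dpyd (-3.22) lower, 4 of 10 beside 23.5% of all genes. Compared with treated wild-type liver, Upp1 and Cad were higher and Upp2, Dpyd and Galt lower, 5 of 10 beside 20.3% of all genes. The difference between the LPS/GalN responses of the genotypes was -5.12 for Upp2, -2.26 for Dpyd, -1.17 for Galt, 1.82 for Upp1 and 2.24 for Cad, 5 of 10 past 2-fold beside 21.4% of all genes. With all arrays scaled to an equal spread, Upp1 (0.63), Cad (0.86) and Dpyd (-0.74) no longer reached 2-fold between the treated livers, nor did Dpyd (-0.69) and Galt (-0.90) in the difference of the responses. The comparisons share the treated TMX-/- array, so their values are not independent of each other.

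**Figure D2:**
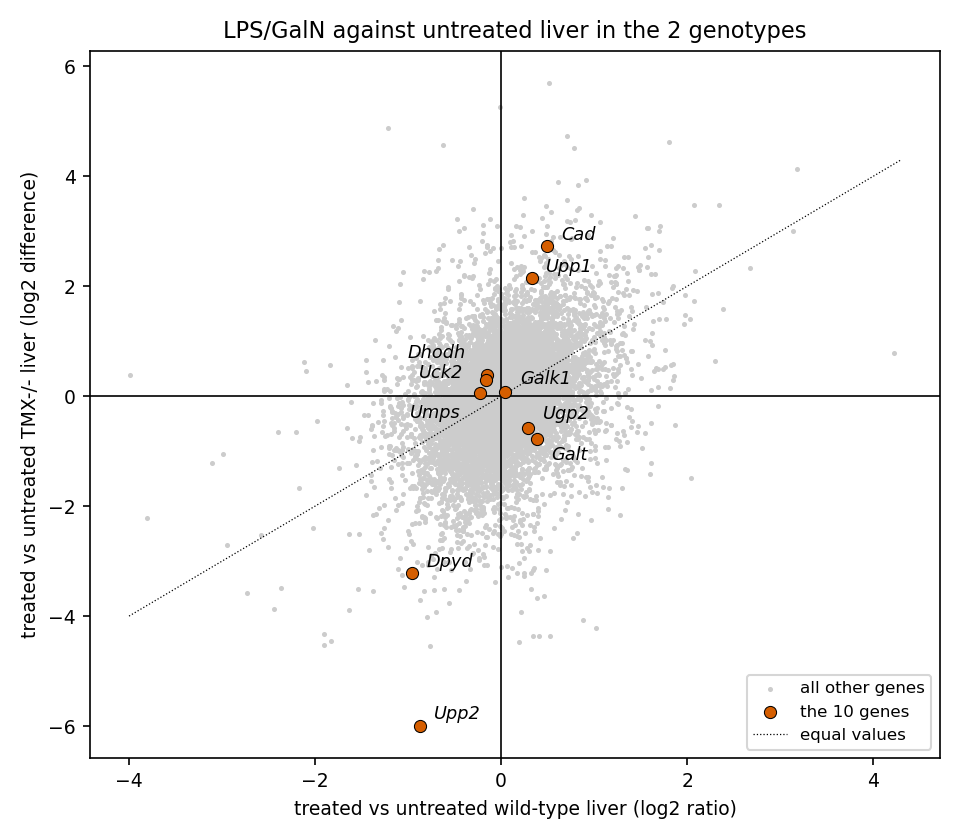
Log2 ratio of treated to untreated wild-type liver (horizontal axis) and log2 difference of treated and untreated TMX-/- liver (vertical axis) for 10179 genes; grey points are all other genes, orange points the 10 genes, and the dotted line marks equal values. Upp2 (-0.88 and -5.99) is the lowest point on the vertical axis, Cad (0.49 and 2.73) and Upp1 (0.33 and 2.15) lie high, and Galt (0.38 and -0.79) and Ugp2 (0.29 and -0.57) lie right of 0 and below 0.

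Among genes that make or use UDP-sugars, all 9 measured genes of the UDP-glucuronosyltransferase list were at least 2-fold lower in treated TMX-/- liver (median -2.09). Most of the enzymes on this list join glucuronate from UDP-glucuronate to drugs, bilirubin and steroids. Ugt2b1 (-3.48), Ugt2a3 (-3.10), Ugt2b5 (-2.36) and Ugt3a2 (-2.23) were the lowest, and near-identical members of this family may share probe signal. In treated wild-type liver their median was 0.15, with Ugt2b37 2-fold higher (1.28), and in untreated TMX-/- liver 0 of the 9 reached 2-fold. Of 11 genes of glycogen, hexosamine, sialic acid and UDP-glucuronate synthesis with a value on all 3 arrays, 5 were 2-fold higher and 4 lower in treated TMX-/- liver, with a median of 0.98. Pgm3 (2.37), an enzyme of hexosamine synthesis, and Uap1l1 (2.23) were high, while Gys2 (-2.37), the liver glycogen synthase, and Gne (-2.14), which starts sialic acid synthesis from UDP-N-acetylglucosamine, were low. Within hexosamine synthesis Gfpt1 (1.41) stood high with Pgm3, Gnpnat1 (-1.95) low and Uap1 near 0 (-0.04), and within glycogen synthesis Gyg (1.22) stood high and Gbe1 (-1.04) low with Gys2. Pgm3 was also 2-fold higher in treated wild-type (1.12) and untreated TMX-/- liver (1.01). A shift of the same sign on all 3 arrays cannot be told apart from an effect of the dyes or of the shared reference.

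Nucleotidases, transporters and deoxynucleotide genes had medians nearer to 0 in treated TMX-/- liver than the lists just described (-2.09 and 0.98). Among 8 nucleotidase genes, not all of them specific to pyrimidines, 2 were 2-fold higher in treated TMX-/- liver, beside 13.6% of all genes. None of the 8 was 2-fold lower, beside 13.2% of all genes, and their median was 0.34. Nt5c3b (2.53), Nt5c2 (1.63) and Nt5c3 (0.94), which dephosphorylate nucleoside monophosphates, had the largest ratios, followed by Enpp1 (-0.70). Among 4 nucleoside transporters with a value on all 3 arrays, the equilibrative transporter gene Slc29a1 was 2-fold lower (-1.94), the concentrative transporter gene Slc28a2 stood at 0.84, and the median was -0.73. Among 6 genes of thymidylate and deoxynucleotide synthesis with a value on all 3 arrays, 2 were higher (Rrm2 at 1.39 and Rrm1 at 1.06, the subunits of ribonucleotide reductase) and 2 lower (Shmt1 at -2.45 and Shmt2 at -1.59, serine hydroxymethyltransferases), with a median of 0.12. Against untreated TMX-/- liver, 0 of these 6 were 2-fold higher and 2 lower, beside 11.4% and 12.1% of all genes. Against treated wild-type liver 0 were higher and 2 lower, beside 9.64% and 10.6%. Of 6 UDP-sugar transporters, Slc35d1 alone was 2-fold higher (2.15) in treated TMX-/- liver and 0 were lower, with a median of -0.07.

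The purine genes give the same kind of count for the other nucleotides. Of 12 purine synthesis genes with a value on all 3 arrays, 3 were 2-fold higher and 2 lower in treated TMX-/- liver, with a median of 0.51. Impdh2 (1.13), which makes the guanine precursor XMP, was high, and Paics (-1.20) and Adssl1 (-1.13) were low. Impdh1 had no value in untreated TMX-/- liver and is not among the 12. It was high in both treated livers, at 1.54 in TMX-/- and 1.64 in wild-type liver. Of 6 purine breakdown genes, Urah (-2.20) and Uox (-1.76) of urate degradation were lower and Pnp (2.14), the purine nucleoside phosphorylase, was higher, with a median of -0.62. Pnp, the purine counterpart of the uridine phosphorylases, was also 2-fold higher in treated wild-type liver, at 1.31.

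**Figure D3:**
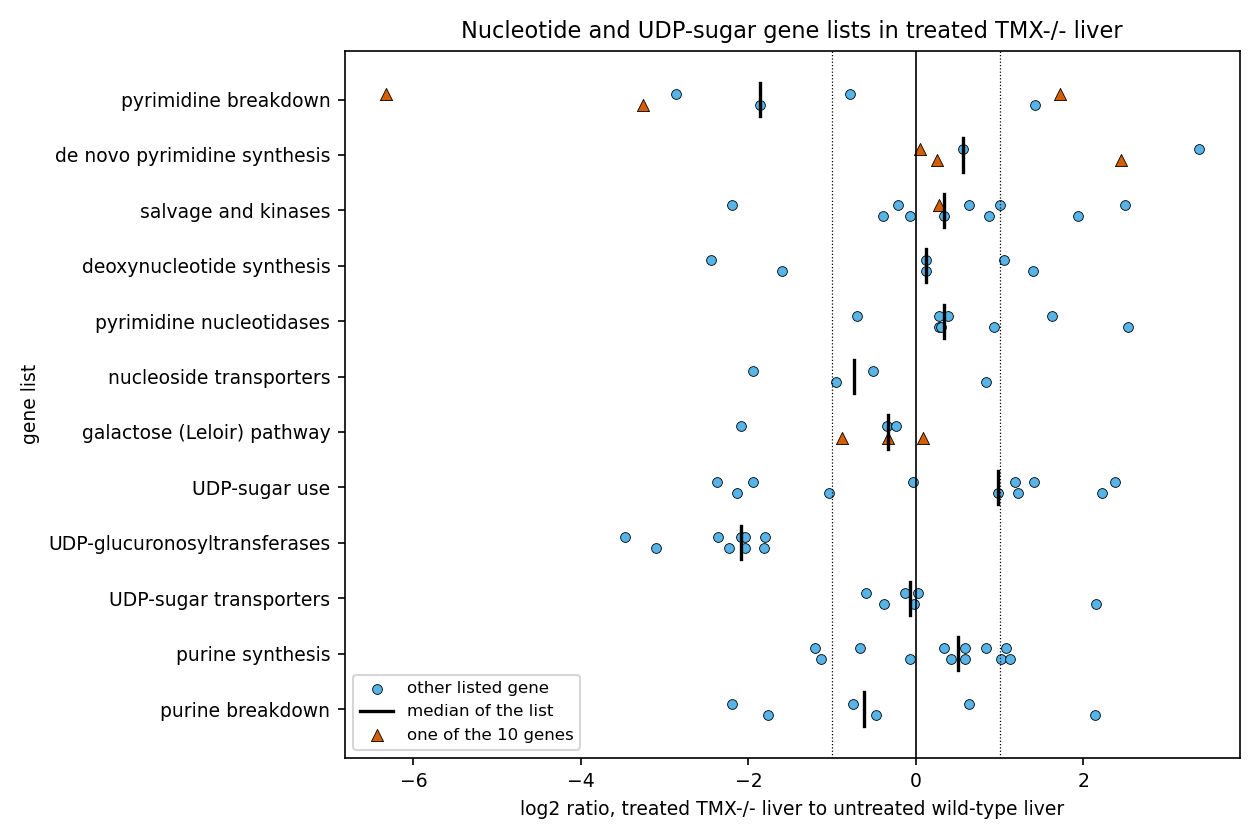
Log2 ratio of treated TMX-/- to untreated wild-type liver (horizontal axis) for the genes of 12 gene lists with a value on all 3 arrays (vertical axis); each point is a gene on 1 array, orange triangles are those of the 10 genes that belong to the list, black bars are list medians and dotted lines mark 2-fold. All 9 UDP-glucuronosyltransferase points lie left of -1, the breakdown list runs from Upp2 at -6.33 to Upp1 at 1.72, and the points of de novo synthesis lie at or above 0.05.

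Markers of cell types moved beside these genes, and in whole liver fewer cells of a type cannot be told apart from less RNA per cell. Of 9 measured hepatocyte markers, 7 were at least 2-fold lower in treated TMX-/- liver, with a median of -1.82 and a range from -4.47 (Cyp2e1) to -0.14 (Apob). Upp2 lay below all 9, and Dpyd (-3.26) below all but Cyp2e1. In treated wild-type liver 3 of the 9 were 2-fold lower (median -0.25), and in untreated TMX-/- liver 0 were (median -0.48). The ratios give no levels, so no summed level of a marker list can be given and no marker can be called absent. Alb, albumin, and Hnf4a, a hepatocyte transcription factor, had values on all 3 arrays, at -1.84 and -0.28 in treated TMX-/- liver.

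Many but not all markers of dividing cells and of several non-parenchymal cell types were high in treated TMX-/- liver beside Upp1 and Cad. Of 9 measured markers of dividing cells, 5 were 2-fold higher in treated TMX-/- liver (median 1.12) and 2 in treated wild-type liver (median 0.32). Mki67 and Top2a stood at 0.70 and 0.72 in treated TMX-/- liver and at 0.73 and 1.02 in treated wild-type liver. Between the treated livers, 7 of the 9 markers were higher in TMX-/- liver and these 2 were lower. Tk1, outside this list, stood at -2.20 in treated TMX-/- liver. Plac8, the only monocyte marker with a value on all 3 arrays, stood at 2.16 in treated TMX-/- liver, as the other monocyte markers were blank on at least 1 array. At least 2-fold higher there were 3 of 5 neutrophil markers (median 2.66, with Ly6g lower at -2.50) and 9 of 12 Kupffer cell and macrophage markers (median 1.37). Macrophage markers were also high in treated wild-type liver (9 of 12, median 1.19), where Upp1 stood at 0.33 and Cad at 0.49. In untreated TMX-/- liver all 12 macrophage markers were above 0 (median 0.79, with 3 at 2-fold), while Upp1 (-0.43) and Cad (-0.27) were below 0. Of markers with a value on all 3 arrays, 2 of 4 stellate cell genes, 2 of 4 T and NK cell genes (median 1.36), 2 of 5 sinusoidal endothelium genes (0.41) and 1 of 3 B cell genes (0.41) were 2-fold higher in treated TMX-/- liver. Of 5 cholangiocyte genes 1 was higher and 1 lower (0.35). T and NK cell genes were also high in untreated TMX-/- liver, where 2 of the 4 were 2-fold higher (median 0.90). These were Cd3g (1.16) and Nkg7 (2.21), and Nkg7 stood lower, at 0.79, in treated TMX-/- liver. In treated wild-type liver 1 of the 4 was 2-fold higher (median 0.66). The part of these cell types in the ratios of Upp2, Dpyd, Upp1 and Cad was not tested.

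By the distance between their 3 array values, the 5 genes nearest to Upp2 among the 10179 were Inmt, Dbp, Thrsp, Serpina6 and Car3. Inmt, indolethylamine N-methyltransferase, was the closest, with -0.76, -0.85 and -5.39 in treated wild-type, untreated TMX-/- and treated TMX-/- liver, at a distance of 1.08. Dbp, a clock-controlled transcription factor, stood at -1.90, -0.73 and -5.25, and Thrsp, a regulator of lipogenesis, at 0.20, -0.83 and -5.29. Serpina6 (corticosteroid-binding globulin) and Car3 (carbonic anhydrase 3) lay at distances of 1.64 and 1.91. A likeness over 3 values from 3 arrays rests mostly on the single low value in treated TMX-/- liver.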

How the data were processed

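The authors deposited 1 table of signed log ratios for 3 arrays with 2 channels each, read here as log2. The logarithm's base, the numerator, image analysis, normalization and the reason for blank cells are not stated in the sources used here. The values ran from -6.40 to 8.04, which a decimal logarithm would not give. With a natural logarithm every fold would be raised to the power 1.44. RNA was extracted with a miRNeasy kit and amplified as amino allyl RNA, per the labels' protocols.

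Of 23473 rows, 16631 had 1 symbol in GEO's platform annotation, 0 had several and 6842 had none. Older symbols were renamed by way of RefSeq synonyms (GRCm38.p6): 12622 were current, 3947 were renamed and 62 were kept. Probes of a gene were averaged, and each array was centred on its median over the 10179 named genes present on all arrays (-0.05, -0.03 and -0.07). Depth has no meaning for these arrays, their number limits the precision, and signal and background were not at hand. The steps were tested on simulated data and run in Python 3.11.15 with pandas 2.3.3.

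The 10 genes and all lists were chosen with earlier results of these data known. All 10 genes are named, with up to 4 genes of each pathway list by the size of their ratio in treated TMX-/- liver, the 5 genes nearest to Upp2, and Tmx1. Genes named besides these were picked after their values were seen. They are Tymp, Cda, Ugt2b37, Gfpt1, Gnpnat1, Uap1, Gyg, Gbe1 and single cell type markers. Listed genes without a matching name were not analysed here. Alternatives were centring, spread, the logarithm's base, the fold, the Uck2 probe and means for medians.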

Additional observations from a re-analysis of the deposited data

Results flagged for a closer look

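The values of treated against untreated liver had opposite signs in the genotypes for 5 of the 10 genes, each from 1 array for a group, so the difference was not tested. The response in TMX-/- liver minus that in wild-type liver was -1.17 for Galt (0.38 in wild-type and -0.79 in TMX-/- liver). It was -0.87 for Ugp2 (0.29 and -0.57), 0.54 for Dhodh (-0.16 and 0.38), 0.45 for Uck2 (-0.16 and 0.29) and 0.27 for Umps (-0.22 and 0.05). The SD of a single probe for this difference was 0.65, which Galt and Ugp2 exceeded and Dhodh, Uck2 and Umps did not. The sign of the Umps value in TMX-/- liver turned with equal spread on the arrays (-0.16) and with centring over all named genes (-0.0011). The probes of Uck2 did not give the same sign between the TMX-/- arrays (0.81 and -0.23), and the second of them was below 0 in both genotypes (-0.21 in wild-type liver).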

How the results depend on the processing

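No paired analysis was possible because each group has 1 array. In treated wild-type liver, 0 of the 10 genes were 2-fold lower. This became 1 with the values as deposited and 1 with centring over all named genes on that array (Dpyd, at -1.001 and -1.006). It became 2 (Dpyd and Upp2) with equal spread on the arrays, with a natural logarithm, and at 1.5-fold. With equal spread, 0 genes in place of 2 were 2-fold higher in treated TMX-/- than in treated wild-type liver (Upp1 0.63, Cad 0.86) and 1 in place of 3 was lower in the difference of the responses. Dpyd then stood at -0.74 between the treated livers. Against untreated TMX-/- liver, a comparison added after seeing the data, 0 of the 10 reached 2-fold in treated wild-type liver. With the Uck2 probe of the larger ratio, Uck2 stood at 1.005 in treated TMX-/- liver. No gene past 2-fold changed sign under centring, equal spread, the logarithm or the choice of probe; the signs that changed belonged to small values of Galk1, Dhodh, Umps and Uck2. The mean of the breakdown genes between the TMX-/- arrays was -2.36, against a median of -3.22, and that of the synthesis genes 1.06 against 0.38. Signal over background is unknown.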
